A study of Ovis aries with 12 samples.

Results

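The endometrium, the inner lining of the uterus, expressed 53 genes that were nearly absent from the ovary and corpus luteum samples of the same study. The members of this list were selected on measured values. A gene entered when it reached at least 1 CPM (the count scaled to a library total of 1000000) in all 6 endometrial libraries and stayed under 0.1 CPM in all 6 ovarian and luteal libraries. Of the 24616 genes counted, 53 met both conditions, 13035 met the endometrial one and 7283 the ovarian one. The contrast between the tissues therefore chose these genes and is described here without a test. Change with fertility and spread between libraries within the endometrium were not used to choose them, beyond the minimum of 1 CPM.

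RNA sequencing was done on frozen tissue of sheep, as the labels have it, in 4 groups of 3 libraries. T-H and T-L are endometrium of high and of low fertility, and Co-H and Co-L are the ovarian groups of high and of low fertility. The library Co-H 3 is labelled corpus luteum and the other 5 Co libraries ovary, while every Co file is headed CL. The labels name neither an age, a breed, a cycle stage nor a treatment, while the design text calls the samples pooled and speaks of 6 controls and 6 treatments. Nothing in them states that replicates are different animals, so a p-value here reflects the spread of these samples alone, which may be technical. The main test took its estimate of spread from all 12 libraries, the ovarian ones included. For the members the rule held every Co count at 0 or 1, so this estimate drew in part on values that the rule used. Any other factor that differed between Co and T cannot be told apart from tissue. In bulk tissue, fewer cells of a type and less RNA per cell cannot be told apart.

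The endometrium consists of a luminal epithelium, secretory glands and a stroma, and its glands deliver the secretions that feed the early embryo of ruminants before implantation. The ovary carries follicles and, after ovulation, the corpus luteum, whose steroidogenic cells make the progesterone that prepares the endometrium. A list of genes on in the first and off in the second can hold patterning, epithelial, ciliary or secretory genes of the uterus. Which of these the 53 are was not analysed here. The counts stand under cattle gene identifiers that the files do not pair with names, and none matched the sheep gene table used here. The genes are therefore given by identifier, with no roles, and the labelled tissues were not checked against marker genes.

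Total counts were 9627378 to 13934369 in T and 12665680 to 17852552 in Co. At these depths the threshold in T meant at least 10 to 14 counts per library, and the threshold in Co meant at most 1 count in every library. Levels below are CPM after TMM scaling, which corrects the library total for composition, with scaling factors of 1.03 to 1.23 in T and 0.745 to 1.00 in Co. A member just past 1 CPM by library total can therefore stand just under 1 on the scaled measure.

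The list was made up mainly of genes of modest level in the endometrium. Over the 6 T libraries the member means ran from 1.14 to 60.2 CPM with a median of 4.61 CPM, against a median of 22.5 CPM over the 13035 genes that met the endometrial condition. Mean levels were at least 10 CPM in 12 members, between 5 and 10 CPM in 13 and under 5 CPM in 28. In 5 members the mean lay above the median of those 13035 genes. The members, unlike those genes, also had to pass the Co limit. By library total, ENSBTAG00000018657 had a mean of 66.2 CPM in T and was kept out with at most 2 reads in any Co library. Whether the Co limit itself lowered the level of the list was not tested. The 3 most abundant members held 31.0% of the summed level of the list, and the 10 most abundant held 60.7%.

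ENSBTAG00000021059 was the most abundant member, at 84.4, 50.7 and 54.8 CPM in the T-H libraries 1 to 3 and at 44.4, 49.0 and 78.1 CPM in the T-L libraries 1 to 3. Its highest library, T-H 1, and the next, T-L 3, belonged to different fertility groups, and the groups overlapped. ENSBTAG00000045677 followed at 34.6, 43.0 and 17.9 CPM in T-H and at 48.7, 50.1 and 108 CPM in T-L. In this gene every T-H library lay below every T-L library. Neither gene had a count in any Co library. At the lower end, ENSBTAG00000009833 stood at 0.976, 0.981 and 1.36 CPM in T-H and at 1.09, 1.28 and 1.16 CPM in T-L. ENSBTAG00000003435 stood at 1.24, 1.37 and 1.43 CPM in T-H and at 1.55, 1.11 and 0.983 CPM in T-L. For these low members the values of both fertility groups interleaved.

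**Figure D1:**
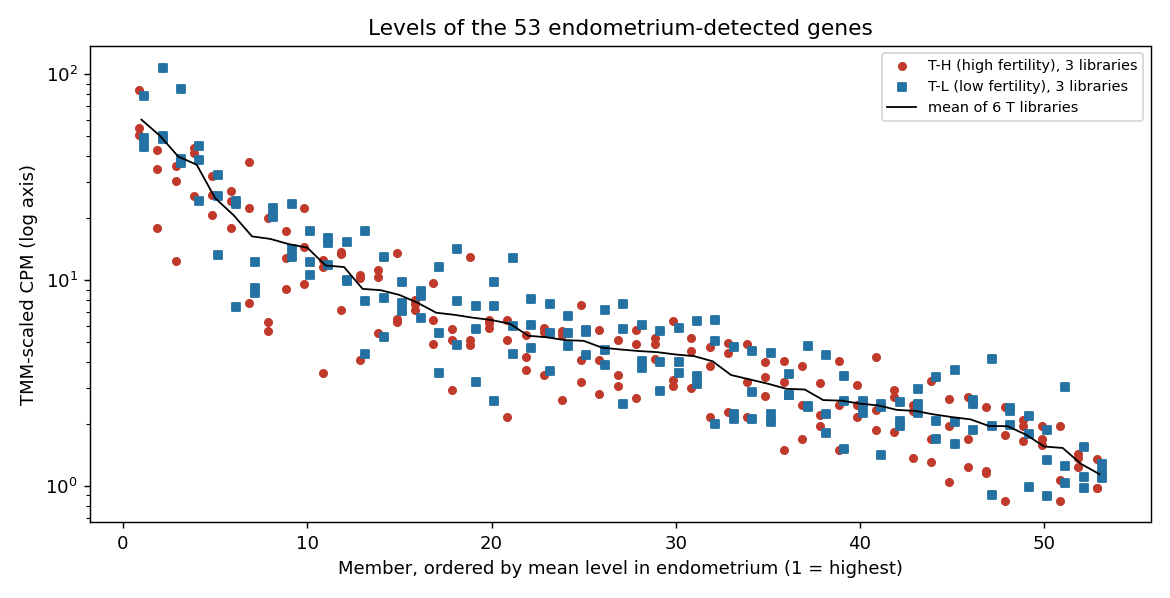
TMM-scaled CPM (log axis) of the 53 members in each of the 3 T-H libraries (circles) and 3 T-L libraries (squares), ordered by mean level, with the mean over the 6 T libraries as a line. Means fall from 60.2 to 1.14 CPM, and the circles and squares overlap in all but 3 members.

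In the ovarian libraries 23 of the 53 members had no count at all, and the other 30 had a count in at least 1 Co library. The word "only" thus holds at the threshold and not at the level of single reads. All 55 ovarian counts were single reads, at most 1 per gene and library, against 40462 counts over the same genes in T. One ovarian read was all that 14 members had, 10 members had 2, 4 had 3, 1 had 4 and 1 had 5. The 8 most abundant members were among those without a count. Members without ovarian counts had a median level of 8.48 CPM in T, and members with such counts 3.38 CPM.

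For the 23 members without ovarian counts, the T means were set against a nominal floor of 3 counts summed across Co, or 0.0381 CPM. Against it the T mean was 30.0-fold higher for the lowest member and 1581-fold higher for the highest, with a median of 223-fold. These ratios follow from the rule and from the depth. The genes were chosen for their low counts in Co, so the ratios are not lower limits of the difference between the tissues.

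Single ovarian reads were most numerous in Co-H 3, the library labelled corpus luteum. It held 19 of the 55, and Co-H 1 and Co-H 2 held 6 each. The rule let each member have at most 1 read per Co library, so a Poisson interval around these sums does not allow for the selection. In Co-L the libraries 1 to 3 held 9, 7 and 8. The total count of Co-H 3 was 12702533, close to the lowest of the Co libraries. For 6 members the only ovarian reads were in Co-H 3. Whether its different tissue label goes with these reads was not tested.

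How many genes the rule found turned on single Co libraries. Of the genes that met the rule in all other libraries, 37 were kept out by Co-L 3 alone, 17 by Co-H 3, 6 by Co-L 1, 5 by Co-H 2, 3 by Co-L 2 and 0 by Co-H 1. Without Co-L 3 the list would therefore hold 90 genes, and without Co-H 3 it would hold 70. The 37 genes stopped by Co-L 3 had 2 to 249 counts there, 1071 in all, against 56 counts summed over the other 5 Co libraries. By library total, 16 of them reached at least 1 CPM in Co-L 3, and 2 stood above every T library. Their median mean level in T was 5.48 CPM, near the 5.36 CPM of the members on the same scale. The highest of them in Co-L 3, ENSBTAG00000017602, was singled out after its values were seen. It stood at 7.84, 6.81 and 19.1 CPM in T-H, at 4.61, 8.54 and 4.15 CPM in T-L, at 18.6 CPM in Co-L 3 and at no more than 0.0790 CPM in the other Co libraries. The level in Co-L 3 was thus within the range of the endometrial libraries, while the other ovarian libraries had at most 1 read. For the 17 genes stopped by Co-H 3 the counts there were 2 to 5.

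**Figure D2:**
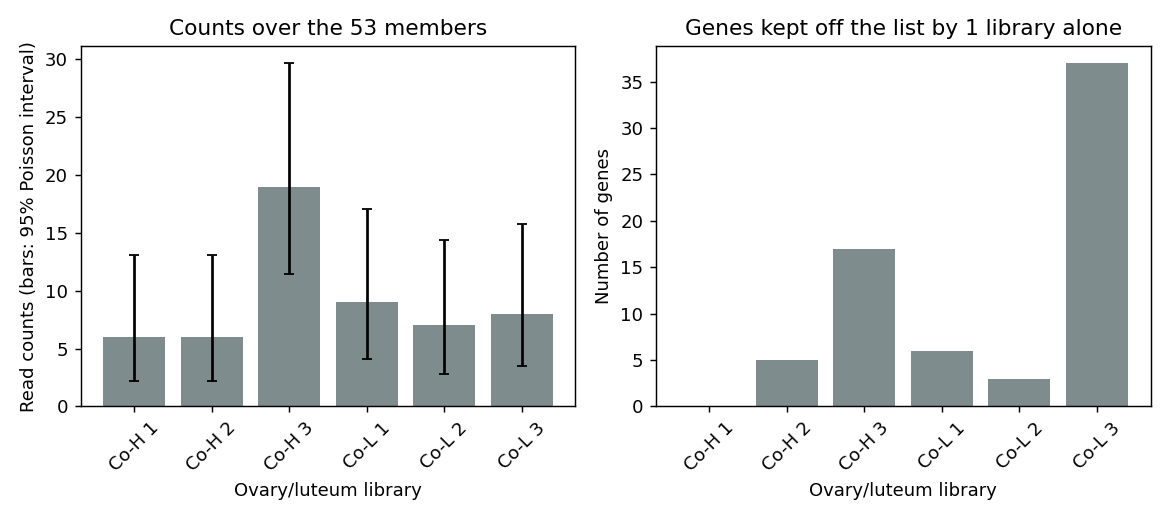
Left, read counts summed over the 53 members in each ovarian or luteal library, with 95% exact Poisson intervals. The intervals do not allow for the rule, which let each member have at most 1 read per Co library. Right, the number of genes that met the rule in all other libraries and were kept out by that library alone. Co-H 3 stands highest on the left with 19 counts, and Co-L 3 stands highest on the right with 37 genes.

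On the value that a threshold used, the members next to it differed little from the genes just past it. By library total, ENSBTAG00000009833 entered with a lowest T library of 1.003 CPM, while ENSBTAG00000011720 was left out with a lowest T library of 0.991 CPM. Of the genes under the Co limit, 9 had a lowest T library from 0.9 CPM up to the threshold, and 5 members had one under 1.1 CPM. On the ovarian side ENSBTAG00000006947 entered with single reads in Co, at most 0.0790 CPM. ENSBTAG00000007506 was left out with 2 reads in 1 library, or 0.112 CPM. ENSBTAG00000018657 was also left out at 0.112 CPM. Their mean levels in T were far apart, at 3.74 CPM for ENSBTAG00000007506 and 66.2 CPM for ENSBTAG00000018657. A highest ovarian count of 2 kept out 32 genes that met the endometrial condition.

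Levels of the members varied between the endometrial libraries. The coefficient of variation (CV, the SD divided by the mean) over the 6 T libraries had a median of 0.328 and ran from 0.107 to 0.720. Its median was 0.146 over the 13035 genes that met the endometrial condition and 0.164 over all 14839 genes tested for fertility. A low level adds counting noise, so genes of like level are the closer background. Between 2.51 and 8.94 CPM, the quartiles of the members, the 27 members there had a median CV of 0.327 and the 2522 genes of the 13035 had 0.235. Counting alone would give the members a median CV of 0.131, and 3 members had a CV under their own counting value. The highest T library stood at least 2-fold above the lowest in 45 members and at least 4-fold in 9.

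ENSBTAG00000003006 had the highest CV, 0.720, with 22.5, 37.6 and 7.77 CPM in T-H against 9.21, 8.63 and 12.2 CPM in T-L. Its high values lay in T-H 1 and T-H 2, while T-H 3 was the lowest of all 6. ENSBTAG00000006060 came next with a CV of 0.619, at 1.15, 1.18 and 2.41 CPM in T-H and 0.901, 4.14 and 1.97 CPM in T-L. Here T-L 2 stood apart, followed by T-H 3. The steadiest member was ENSBTAG00000020361 with a CV of 0.107, at 7.19, 7.65 and 7.995 CPM in T-H and 8.82, 8.40 and 6.52 CPM in T-L. ENSBTAG00000014409 had a CV of 0.130, at 2.48, 2.16 and 3.09 CPM in T-H and 2.25, 2.51 and 2.59 CPM in T-L. In both steady members the 6 libraries differed by less than 1.5-fold.

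**Figure D3:**
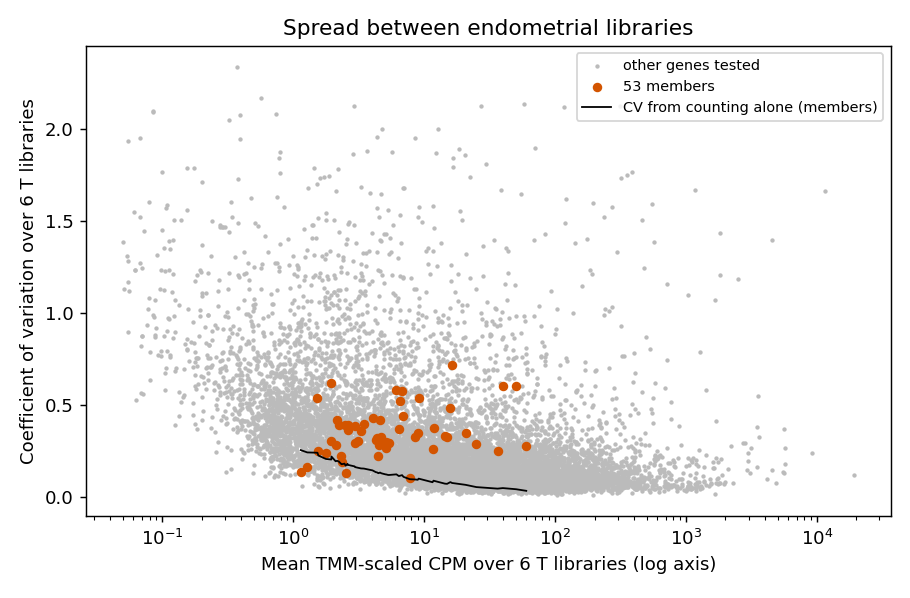
Coefficient of variation over the 6 T libraries against mean TMM-scaled CPM (log axis) for the 53 members and the other genes tested with a mean above 0.05 CPM. The line is the CV that counting alone would give the members. All but 3 members lie above the line, and their median CV is 0.328.

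Many members were highest in the same endometrial libraries, and those libraries crossed the fertility groups. T-L 2 was the highest library for 23 members (43.4%) and T-H 3 for 14 (26.4%), or 37 of the 53 together (69.8%). T-H 2 was the lowest for 23 (43.4%) and T-L 1 for 12 (22.6%). Of all 14839 genes tested, 15.9% were highest in T-L 2, 13.8% in T-H 3 and 29.8% in either. T-H 2 was the lowest for 14.9% of them and T-L 1 for 14.5%. T-H 3 and T-L 2 were the 2 highest libraries in 23 members (43.4%), against 7.68% of all 14839 genes tested. No other of the 15 possible pairs of libraries led in more than 7 members. The pair was singled out after the values were seen, and the shares are a description with no test. Its 23 members summed to 105, 71.7 and 156 CPM in the T-H libraries 1 to 3, and to 88.9, 164 and 98.9 CPM in the T-L libraries 1 to 3. Each fertility group held 1 of the 2 high libraries. The median log2 change of these 23 members was −0.09, with 15 of them below 0. For the other 30 members the median was −0.05, with 17 below 0. Mean levels of the 23 ran from 1.14 to 14.97 CPM, so none of the 8 most abundant members was among them.

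Among the abundant members 2 genes followed one another closely. ENSBTAG00000006655, the third in level, stood at 30.3, 35.8 and 12.4 CPM in T-H and at 36.9, 38.9 and 84.9 CPM in T-L. Like ENSBTAG00000045677 it was highest in T-L 3 and lowest in T-H 3. The ratio of ENSBTAG00000045677 to ENSBTAG00000006655 stayed between 1.14 and 1.45 in the 6 libraries, while their own levels differed 6.03-fold and 6.86-fold between the highest and the lowest library. This pair was noticed after the values were seen. Without the counting rules, reads shared between near-identical or overlapping genes cannot be told apart.

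**Figure D4:**
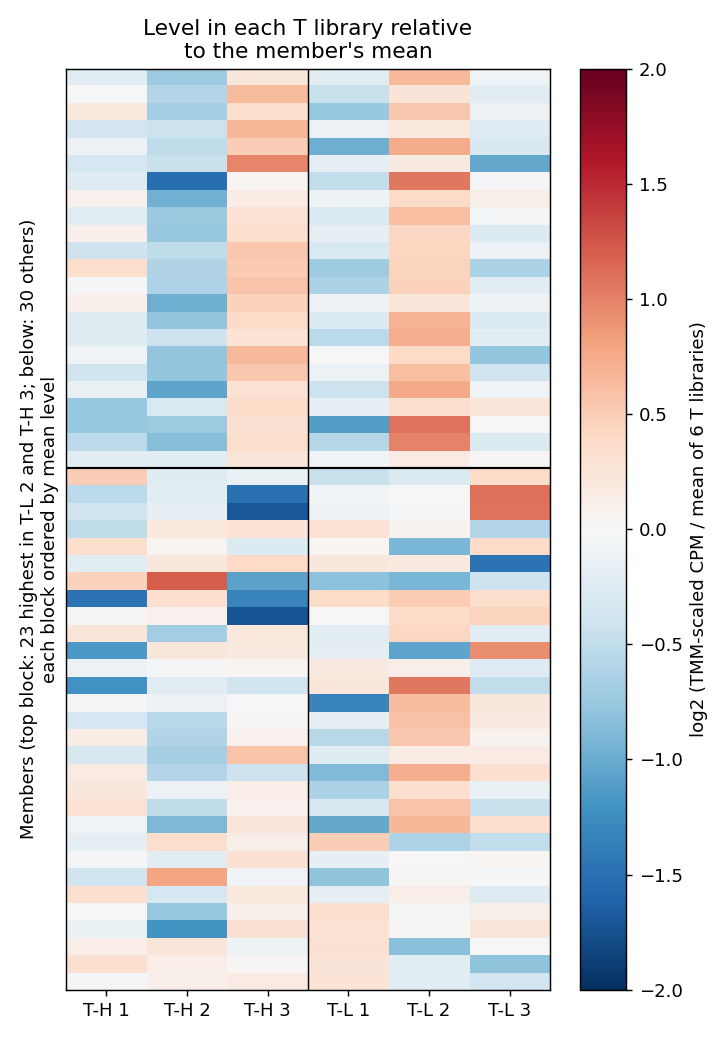
Level of each member (rows) in each T library (columns) as log2 of the ratio to its mean over the 6 T libraries, from blue (lower) to red (higher). The upper block holds the 23 members whose highest libraries were T-L 2 and T-H 3, and the lower block the other 30. In the upper block T-H 2 has the lowest summed level, 71.7 CPM.

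The comparison of T-H with T-L asked whether the members changed with fertility in the endometrium. No change was called in any member, or in any of the 14839 genes tested (0%, quasi-likelihood test in edgeR at a Benjamini-Hochberg adjusted p under 0.05). All 53 members entered the test, and their smallest adjusted p was 1. At an unadjusted p under 0.05 in edgeR there was 1 member (1.89%), against 608 of all genes (4.1%). DESeq2 called 27 of all genes and limma-voom with quality weights 3, in both cases 0 of the members. At an unadjusted p under 0.05 DESeq2 had 3 members and 671 of all genes, and limma-voom 5 members and 818 of all genes. Whether the members' share lay below that of all genes thus turned on the method.

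The members' log2 changes ran from −1.11 to 1.18 with a median of −0.08, against 0.01 for all genes tested. They were below 0 in 32 members (60.4%) and above 0 in 21, and 44 members lay within 0.5 of 0. Of all genes tested 49.0% were below 0. The side on which most members lay turned on single libraries, with 20 of the 53 below 0 and a median of 0.09 without T-L 2, 26 below 0 without T-H 2, and 41 without T-H 3. The summed level of the list was 456, 443 and 451 CPM in the T-H libraries 1 to 3, and 437, 541 and 582 CPM in the T-L libraries 1 to 3. It averaged 450 ± 6.78 CPM in T-H and 520 ± 74.6 CPM in T-L (SD, n = 3 each). T-L 1 stood below all T-H libraries, so the groups overlapped. Without the 3 most abundant members the sum was 307, 313 and 366 CPM in T-H, and 307, 402.5 and 311 CPM in T-L. T-L 3, the highest library for the whole list, was then below T-H 2 and T-H 3.

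The fertility groups did not overlap in 3 members (5.66%), against 10.4% of all genes tested, and in all 3 T-H was the lower group, which was so for 5.3% of all genes. T-H lay wholly above T-L in 0 members and in 5.05% of all genes. ENSBTAG00000045677 had the smallest p of the list, with 31.8 ± 12.8 CPM in T-H and 68.9 ± 33.7 CPM in T-L (SD, n = 3 each). Its log2 difference was −1.11 (SE 0.42, edgeR unadjusted p = 0.0305, adjusted p = 1). ENSBTAG00000006655 averaged 26.2 ± 12.2 CPM in T-H and 53.6 ± 27.1 CPM in T-L, and its log2 difference was −1.03 (SE 0.47, adjusted p = 1 in edgeR). In both the distance rested in good part on T-L 3, without which the log2 differences were −0.65 and −0.55. It rested in part on T-H 3 too, without which they were −0.84 and −0.71. The third, ENSBTAG00000012461, was singled out after its values were seen. It stood at 5.68, 20.1 and 6.26 CPM in T-H and at 20.5, 22.4 and 20.2 CPM in T-L. T-H 2 was thus next to the T-L libraries, and T-H 1 and T-H 3 were low. Its log2 difference was −0.97 (SE 0.49, edgeR adjusted p = 1).

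In the other direction ENSBTAG00000003006 averaged 22.6 ± 14.9 CPM in T-H and 10.03 ± 1.94 CPM in T-L (SD, n = 3 each). Its log2 difference was 1.18 (SE 0.52, adjusted p = 1 in edgeR). Without T-H 2 the log2 difference was 0.57. ENSBTAG00000020202 stood at 5.15, 4.84 and 13.0 CPM in T-H and at 5.80, 7.46 and 3.22 CPM in T-L, and its log2 difference was 0.47 (SE 0.52, adjusted p = 1 in edgeR). T-H 3 alone was above the T-L libraries, and without it the log2 difference was −0.16. None of these 5 genes passed the test.

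**Figure D5:**
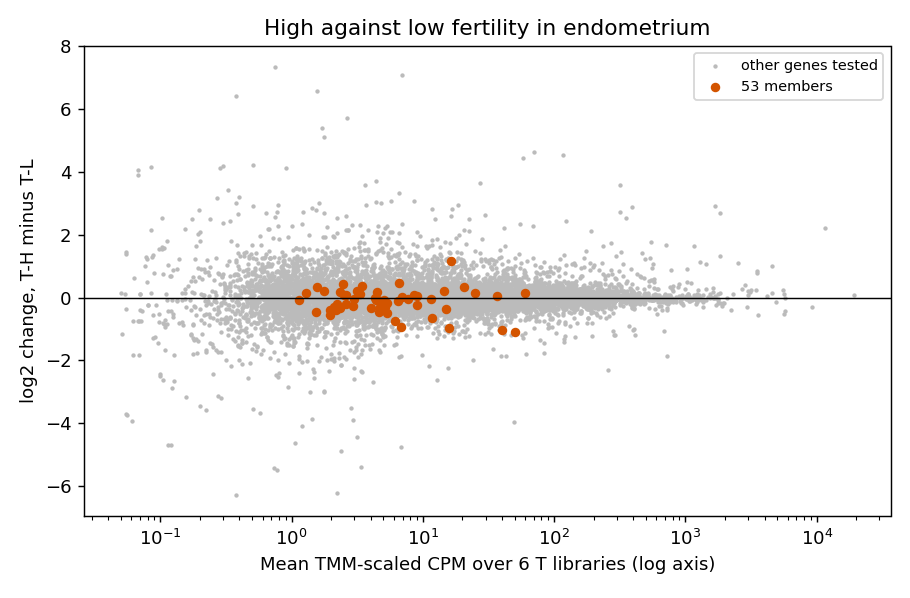
Log2 change of T-H minus T-L against mean TMM-scaled CPM in T (log axis) for the 53 members and the other genes tested with a mean above 0.05 CPM. The members lie between −1.11 and 1.18, inside the cloud of the other genes, and none was called.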

How the data were processed

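Total RNA was extracted with Trizol and sequenced from TruSeq libraries, per the labels' protocols. The authors deposited raw read counts per cattle gene identifier, 24616 in each of 12 files. The submitters' processing notes name Bowtie 0.12.2 and, for 7 libraries, the build bosTau8. How reads were counted (tool, annotation, strand, filters) is not stated by any source used here. Whether counting on cattle genes lowers sheep genes was not tested. 1 file had a blank line and 1 a header that ran into the first gene, both read as meant.

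The members and the rules were chosen with earlier results of these data known. Members were picked on CPM of the library total. In R 4.3.3, edgeR 4.0.16 (filterByExpr with a minimum count of 10, TMM, 1 mean per group over all 12 libraries) tested T-H against T-L by quasi-likelihood over 14839 genes, called at a Benjamini-Hochberg adjusted p under 0.05. The SE is the log2 change divided by the root of the F statistic. The test was tested on simulated data, and the size of change it could detect in these data is not given here. Named members were the 2 highest and 2 lowest by mean, the 2 highest and 2 lowest by CV, and the 2 smallest p in each direction. The gene lists and tissue markers planned by symbol were not run for want of names. Replicate pairs differed beyond sampling noise, with a chi-square per degree of freedom of 18.0 to 135. The highest values, 135 and 113, were those of T-H 1 with T-H 2 and with T-H 3. T-H 2 with T-H 3 had 23.1, and the T-L pairs had 32.1 to 38.5. Alternatives were other scaling factors, DESeq2 1.42.0, limma-voom 3.58.1, other filters, T alone, a replicate block, other thresholds and leaving out each library.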

Additional observations from a re-analysis of the deposited data

How the results depend on the processing

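The number of members called between T-H and T-L was 0 in each of the 21 alternatives run. Their median log2 change moved from its main value by less than 0.325 in all 21. That limit is the SD, between T libraries of a fertility group, of the members' median log2 deviation from their means. It is wider than the main median of −0.08, so a change of sign can fall within it. The median log2 change ranged from −0.33 to 0.09 with 1 library left out. Over all genes the count of calls was 0, but 27 in DESeq2, 3 in limma-voom and 1 with the T libraries alone, and 0 with any library left out. The replicate block, on the T libraries alone, gave 0 calls and a median of −0.11 for the members. With the T libraries alone and no block, the SE of ENSBTAG00000020361 was 0.18, against 0.35 in the main fit over all libraries. It was 0.26 against 0.44 for ENSBTAG00000014409 and 0.31 against 0.47 for ENSBTAG00000003435. For ENSBTAG00000045677 it was 0.414 against 0.416. Deviations from the group mean in libraries with the same number had r of −0.07, −0.02 and −0.29 across genes. Between libraries with unlike numbers r ran from −0.12 to 0.18. It was 0.178 for T-H 3 with T-L 2 and 0.176 for T-H 1 with T-L 3. Such deviations sum to 0 within a group, so these r cannot decide whether the libraries share an animal, a pool or a batch. With 1 library left out the log2 change of ENSBTAG00000021059 ranged from −0.11 to 0.41, that of ENSBTAG00000006060 from −1.03 to 0.16, that of ENSBTAG00000020361 from −0.19 to 0.0098, that of ENSBTAG00000014409 from −0.10 to 0.17 and that of ENSBTAG00000020202 from −0.16 to 0.76, so the direction of these 5 turned on a library. The direction of the other 5 named by rule held in all 21, but for ENSBTAG00000003435 and ENSBTAG00000009833 it is not settled. With 1 library left out their log2 changes ranged from 0.015 to 0.35 and from −0.29 to −0.018. In the main fit they were 0.15 (SE 0.47) and −0.09 (SE 0.41). The list itself held 101 genes at a Co limit of 0.2 CPM, 23 with 0 counts in Co, and 53 to 90 with 1 library left out, the highest without Co-L 3. It held 77 at a T minimum of 0.5 CPM, 39 at 2 CPM, 46 on TMM-scaled CPM and 70 with only the Co libraries labelled ovary. Depth limits the ovarian side, where 1 read separates listed from unlisted genes.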
